A study of Homo sapiens with 8 samples.

Results

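The genes described here are 10 markers of liver cell identity measured by RNA-seq in HepG2, an established human hepatocarcinoma cell line with many features of hepatocytes. They are ALB, AFP, GPC3, KRT8, KRT18, KRT19, EPCAM, CDH1, SOX9 and TAT, and the rule that takes them names symbols and uses no measured value. The symbols were nevertheless chosen with earlier results of these data known. Each symbol matched 1 Ensembl gene among the 20897 genes in the files, and all 10 had at least 1 FPKM (fragments scaled to transcript length and to the mapped fragments of the library) in all 8 libraries. Cells of this single line were exposed for 18 h to genistein, a soy isoflavone (3 libraries), to bone morphogenetic protein 6 (BMP6) at 50 ng/ml (2 libraries), or to the DMSO vehicle alone (3 libraries). All groups had 1% DMSO, and the medium of all groups held 1% serum after an equilibration of 8 h. The genistein dose is uncertain: it reads 10 micromolar in the design text and 10 mM in the protocol for treatment. The series title concerns the effect of genistein on hepcidin, the iron-regulating hormone of the liver. Per the design text, replicates were biological.

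Hepatocytes and bile duct cells arise from a common fetal progenitor. Mature hepatocytes make albumin, the main plasma protein, and inducible amino acid enzymes such as tyrosine aminotransferase (TAT). AFP and GPC3 are made by the fetal liver, silenced after birth and often reactivated in hepatocellular carcinoma, while KRT19, EPCAM and SOX9 mark bile duct and progenitor cells. KRT8 and KRT18 pair to form the intermediate filaments of simple epithelia, and CDH1 encodes E-cadherin, the adhesion protein of epithelial adherens junctions.

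FPKM totals per library ran from 1704599 to 3105197, and the sequencing depth behind them is unknown. Correlations of log2 values between libraries were 0.913 to 0.960 within genistein, 0.847 within BMP6 and 0.884 to 0.963 within DMSO. In a principal component analysis DMSO 1 and genistein 2 stood apart from the others of their groups, and the BMP6 libraries lay far from each other, BMP6 1 farther from the rest. The cell type was checked against marker lists. All 9 hepatocyte markers were detected, with summed FPKM of 124797 to 203382 after genistein, 180662 to 192216 after BMP6 and 172379 to 212001 with DMSO. Of 8 stellate cell and fibroblast markers, 6 were listed at 0 in every library (COL1A1, COL1A2, COL3A1, THY1, DCN and LUM). Summed FPKM of this list, carried by ACTA2, was 139 to 179 after genistein, 149 to 261 after BMP6 and 253 to 265 with DMSO. The endothelial genes KDR, TEK and STAB2 and the leukocyte genes PTPRC, CD163, MARCO and CD3E were also listed at 0 throughout. Summed leukocyte markers, carried by LYZ and CD68, reached 1242 to 1957 FPKM after genistein, 1562 to 2407 after BMP6 and 3250 to 4859 with DMSO. Within that list LYZ fell after genistein (limma adjusted p = 0.0448, lost without any of the 6 libraries at 0.0849 to 0.168) and CD68 rose (0.0406, lost without DMSO 2, DMSO 3 or any genistein library at 0.108 to 0.134). The CD68 call was also lost under the 3 rescalings (0.0652 to 0.106) and with no intensity trend (0.0523). Summed bile duct markers, which include KRT19, SOX9 and SPP1, were 818 to 1305 FPKM after genistein, 2800 to 3459 after BMP6 and 1278 to 1600 with DMSO. In that sum SPP1 was higher and SOX9 lower in both BMP6 libraries than in any DMSO library. The part of these markers in the other results was not tested. In bulk RNA, fewer cells expressing a gene and less of its RNA per cell cannot be told apart.

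ALB and AFP are neighbouring members of a gene family of plasma carrier proteins. In hg18, the build of the files, ALB (ENSG00000163631) spans chr4:74488870-74505996 and AFP (ENSG00000081051) chr4:74520744-74540358, with a gap of 14747 bp and 0 other listed genes between them. Both genes are known for promoters that bind liver factors close to the start, so the 250 bases before each start are shown, from RefSeq on GRCh38.p14, plus strand. Capitals mark 3 short motifs searched on both strands: TATAAA, the TATA box, GTTAAT, a conserved part of the HNF1 site, and CCAAT, which on the minus strand reads ATTGG. The AFP window at chr4:73435971-73436220 holds TATAAA 29 to 24 bases before the start, GTTAAT at 132 to 127 and ATTGG at 125 to 121. The ALB window at chr4:73404037-73404286 holds GTTAAT at 61 to 56 bases before the start, CCAAT at 86 to 82 and ATTGG at 44 to 40, and no TATAAA. Of 35116 promoters of this length, 10.7% hold TATAAA, 6.23% GTTAAT and 32.0% CCAAT. A match is a description of the letters and not evidence of binding.
ALB: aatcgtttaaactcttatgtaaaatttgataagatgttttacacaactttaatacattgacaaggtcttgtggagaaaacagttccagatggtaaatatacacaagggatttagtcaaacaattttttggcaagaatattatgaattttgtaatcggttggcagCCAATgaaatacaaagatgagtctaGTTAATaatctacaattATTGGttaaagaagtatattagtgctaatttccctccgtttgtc
AFP: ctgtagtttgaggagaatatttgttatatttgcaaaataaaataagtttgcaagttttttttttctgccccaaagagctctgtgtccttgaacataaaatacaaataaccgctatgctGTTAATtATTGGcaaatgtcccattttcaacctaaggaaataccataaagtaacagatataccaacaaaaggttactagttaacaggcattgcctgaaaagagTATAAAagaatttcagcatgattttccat

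Albumin was among the most abundant transcripts of every library, ranking 2 to 3 after genistein, 1 in both BMP6 libraries and 3 to 4 with DMSO. ALB had 61916, 45780 and 47636 FPKM after genistein and 143115 and 59633 FPKM after BMP6, against 17949, 30831 and 40448 FPKM with DMSO. Every treated library was above every DMSO library, and the libraries of a group also lay far apart. In limma fitted across 12661 genes, the log2 difference of genistein from DMSO was 0.86 ± 0.93 (SE, adjusted p = 0.561). The difference of BMP6 from DMSO was 1.71 ± 1.04 (SE, limma adjusted p = 0.391). Neither passed the threshold of 0.05, and the 95% intervals of -1.26 to 2.99 and -0.66 to 4.09 include no change.

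AFP, the fetal counterpart of albumin, had 11945, 8009 and 9215 FPKM after genistein and 33948 and 25103 FPKM after BMP6, against 6231, 10920 and 12244 FPKM with DMSO. The genistein libraries lay within the DMSO range, whereas both BMP6 libraries were above every other library. The log2 difference was 0.03 ± 0.61 for genistein (SE, limma adjusted p = 0.985) and 1.63 ± 0.68 for BMP6 (SE, limma adjusted p = 0.248), neither passing the threshold. The sign of the genistein difference turned negative under 3 rescalings of the libraries, at -0.09 to -0.26. Genistein against BMP6 gave -1.61 ± 0.68 on the log2 scale (SE, limma adjusted p = 0.329). AFP and ALB together made up 2.28% to 3.06% of the FPKM total after genistein, 10.4% in BMP6 1, 2.73% in BMP6 2 and 1.31% to 2.24% with DMSO. AFM and GC, the other members of the family, were listed at 0 in all 8 libraries.

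The ratio of AFP to ALB within a library does not depend on how the libraries were scaled to each other. It was 0.193, 0.175 and 0.193 after genistein and 0.237 and 0.421 after BMP6, against 0.347, 0.354 and 0.303 with DMSO. All 3 genistein libraries had a lower ratio than all 3 DMSO libraries, and the BMP6 libraries fell on both sides of the DMSO range. The mean log2 ratio was -2.42 ± 0.08 after genistein and -1.58 ± 0.12 with DMSO (SD, n = 3 each), a difference of -0.84 with a two-sided exact permutation p of 0.1, the smallest that 3 against 3 libraries can give. BMP6 differed from DMSO by -0.08 (exact permutation p = 0.8, n = 2 and 3), and without BMP6 1 the difference was 0.33. Genistein differed from BMP6 by -0.76 (exact permutation p = 0.2, the smallest for 3 against 2). Since 3 groups were compared for each ratio and none could reach 0.05, these p-values carry no call.

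GPC3, a cell-surface heparan sulfate proteoglycan and an antigen of hepatocellular carcinoma, spans chrX:132497448-132947332 (hg18, ENSG00000147257). It had 3270, 3048 and 2851 FPKM after genistein and 3975 and 3346 FPKM after BMP6, against 5848, 5843 and 4836 FPKM with DMSO. All treated libraries were below all DMSO libraries, with little spread inside each group. The log2 difference was -0.85 ± 0.41 for genistein (SE, limma adjusted p = 0.201) and -0.59 ± 0.45 for BMP6 (SE, limma adjusted p = 0.496), neither of which passed the threshold. Of the 5 other glypicans, GPC1 and GPC6 were tested and not called in any comparison with limma (unadjusted p under 0.05 for 0 of the 3 tested glypicans against DMSO, after either treatment). GPC3 was the only glypican above 43.0 FPKM in any library.

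Among 14 tested genes of the fetal liver, progenitor cells and liver cancer, AFP and GPC3 included, 1 fell after genistein and 2 after BMP6, with none higher. Over all genes tested, 5.96% fell after genistein and 0.498% after BMP6, so the genistein count is near the background. Both BMP6 calls are of genes listed at 0 in both BMP6 libraries, so the BMP6 count is given as a description. The median log2 difference of this list was -0.65 after genistein and -0.54 after BMP6, against 0.05 and -0.03 over all genes tested. TSPAN8, a tetraspanin of epithelial tumours, was listed at 0 in all 5 treated libraries, against 16.4, 11.4 and 12.9 FPKM with DMSO. It fell after genistein (limma adjusted p = 0.00342) and after BMP6 (limma adjusted p = 0.0180). Leaving out DMSO 2, DMSO 3, genistein 3 or BMP6 1 ended the BMP6 call (limma adjusted p 0.0554 to 0.124). TSPAN8 passed the filter on low values only through the DMSO libraries, where it is highest, so its calls are no independent support. SPINK1, a secreted trypsin inhibitor, had 85.0, 73.8 and 49.4 FPKM after genistein and was listed at 0 in both BMP6 libraries, against 94.9, 140 and 111 FPKM with DMSO. It fell after BMP6 (limma adjusted p = 4.89e-04) and was higher after genistein than after BMP6 (limma adjusted p = 8.60e-04). IGF2, a fetal growth factor, had 3331 to 5999 FPKM after genistein, 4687 and 6067 after BMP6 and 2305 to 4189 with DMSO, and DLK1 had 419 to 866, 310 and 1749, and 615 to 1090 FPKM in these groups. For IGF2 both BMP6 libraries were above all DMSO libraries, without a call (limma adjusted p = 0.418). Its other groups, and all groups for DLK1, overlapped. LIN28B, an RNA-binding protein of fetal cells, had 24.2, 17.7 and 32.0 FPKM after genistein and 95.6 and 40.4 after BMP6, against 7.01, 14.9 and 16.4 with DMSO, with limma adjusted p of 0.229 and 0.0980.

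The 12 tested genes linked to AFP control form a list that also holds the junction scaffold AFDN. FOXA1, a pioneer factor of liver enhancers, fell after genistein to 59.2, 52.4 and 40.6 FPKM, and had 33.3 and 85.6 FPKM after BMP6, against 356, 208 and 192 FPKM with DMSO. Its log2 change after genistein was -2.25 ± 0.43 (SE, limma adjusted p = 0.0172), a call that DMSO 2, genistein 2 or genistein 3 decided, since leaving out any of them ended it (limma adjusted p 0.0578 to 0.0778). It was the sole call of the list after genistein, and limma called 0 of the 12 after BMP6 (5 at an unadjusted p under 0.05). Among all tested genes 12.1% were called after genistein and 0.837% after BMP6. ZHX2, a repressor of AFP in the postnatal mouse liver, had 24.5, 16.3 and 28.7 FPKM after genistein and 77.4 and 38.0 after BMP6, against 20.6, 26.8 and 27.8 FPKM with DMSO, and was not called. HNF4A, a master regulator of hepatocyte genes, had 275, 201 and 345 FPKM after genistein and 381 and 191 after BMP6, against 208, 227 and 296 FPKM with DMSO, with overlapping groups.

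**Figure D1:**
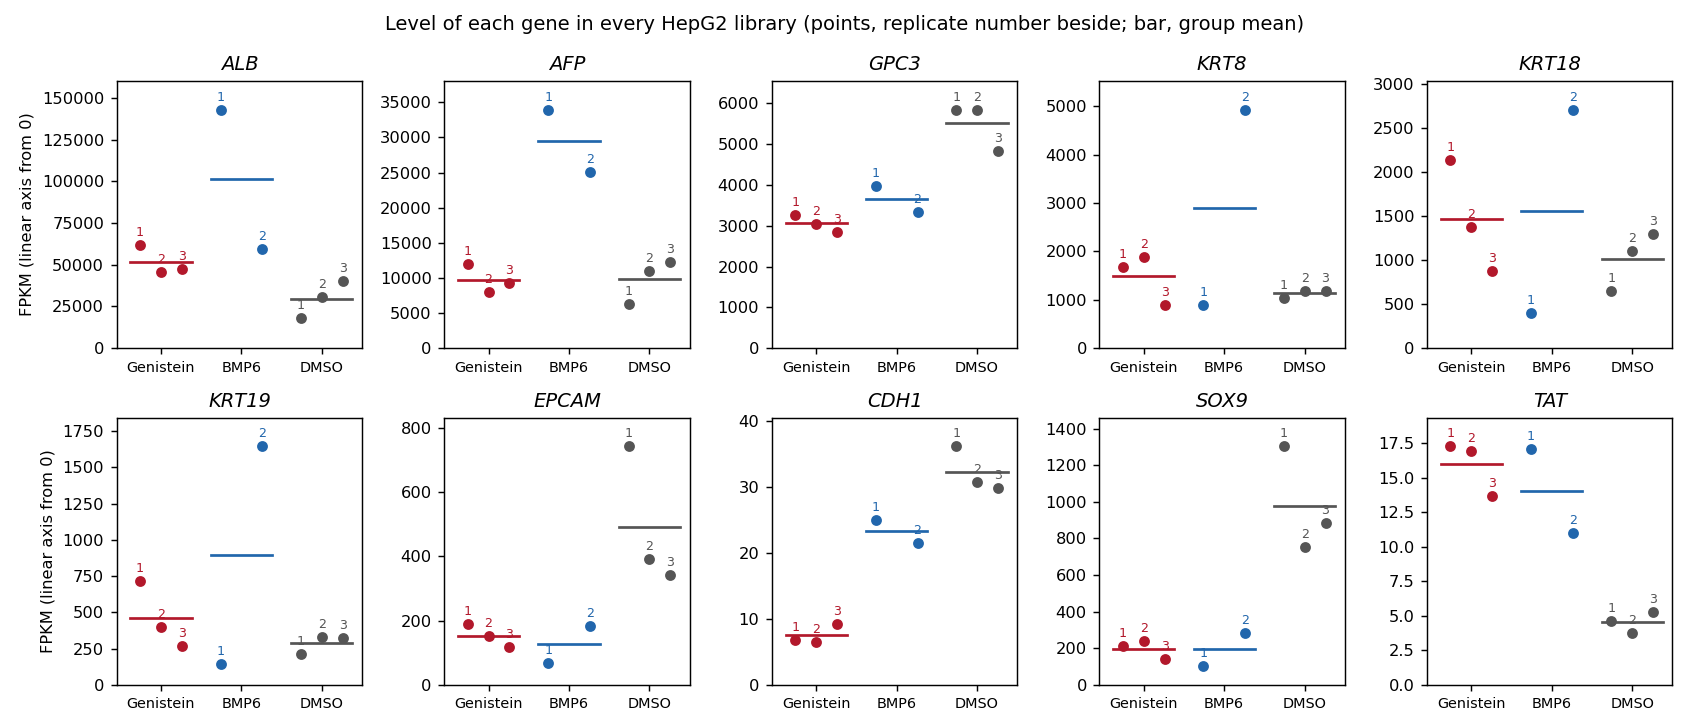
FPKM of the 10 genes in each library, with groups in the order genistein, BMP6 and DMSO, linear axes from 0, replicate numbers above the points and bars at group means. EPCAM, SOX9, CDH1 and GPC3 are lower and TAT and ALB higher in every treated library than in every DMSO library, while BMP6 1 and BMP6 2 lie at opposite ends for the 3 keratins.

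The 3 keratins of simple epithelia did not differ between groups beyond the spread between replicates. KRT8 (ENSG00000170421) spans chr12:51577238-51585127 and KRT18 (ENSG00000111057) chr12:51628922-51632951 in hg18, a gap of 43794 bp with 0 listed genes between them. KRT8, the type II partner, had 1680, 1890 and 887 FPKM after genistein and 883 and 4930 FPKM after BMP6, against 1026, 1182 and 1188 FPKM with DMSO. KRT18, the type I partner, had 2135, 1380 and 879 FPKM after genistein and 399 and 2713 FPKM after BMP6, against 655, 1102 and 1298 FPKM with DMSO. For both genes the treated libraries lay on both sides of the DMSO range, with BMP6 1 the lowest and BMP6 2 the highest of all libraries. KRT19 (ENSG00000171345, chr17:36933396-36938167, hg18), the type I keratin of bile duct cells, had 714, 401 and 265 FPKM after genistein and 143 and 1645 FPKM after BMP6, against 210, 327 and 321 FPKM with DMSO. It followed the same order as KRT18 in the BMP6 and genistein libraries.

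BMP6 2 exceeded BMP6 1 by 5.58 times for KRT8, 6.80 times for KRT18 and 11.5 times for KRT19. The median ratio of the higher to the lower BMP6 library was 2.14 over 11424 tested genes above 0 in both, and 89.1%, 92.8% and 97.8% of these genes had a smaller ratio than KRT8, KRT18 and KRT19. Genistein 1 and genistein 3 differed by 2.43 times for KRT18 and 2.69 times for KRT19. The limma log2 differences from DMSO were 0.32 ± 0.64, 0.49 ± 0.71 and 0.59 ± 0.82 after genistein for KRT8, KRT18 and KRT19 (SE, adjusted p = 0.764, 0.677 and 0.657). After BMP6 they were 0.88 ± 0.71, 0.09 ± 0.80 and 0.79 ± 0.91 (SE, limma adjusted p = 0.513, 0.965 and 0.658). Without BMP6 2 the BMP6 differences were -0.36, -1.29 and -0.97, and without BMP6 1 they were 2.12, 1.47 and 2.55, so the sign rested on the library kept. RefSeq lists 52 pseudogenes of KRT8, 68 of KRT18 and 5 of KRT19, and reads could be shared with these near-identical copies, which makes the 3 levels uncertain. Of these pseudogenes 1, of KRT18, has a row in the files, at no more than 2.78 FPKM.

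The KRT8 to KRT18 ratio was 0.787, 1.37 and 1.01 after genistein and 2.21 and 1.82 after BMP6, against 1.57, 1.07 and 0.915 with DMSO. Both BMP6 libraries were above the other 6, although their keratin levels were at opposite ends. The mean log2 ratio was 1.00 ± 0.20 after BMP6 (SD, n = 2) and 0.21 ± 0.40 with DMSO (SD, n = 3), a difference of 0.80 with an exact permutation p of 0.2, the smallest for 2 against 3. The genistein ratio of 0.04 ± 0.40 (SD, n = 3) differed from DMSO by -0.17 (exact permutation p = 0.6) and from BMP6 by -0.96 (exact permutation p = 0.2).

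**Figure D2:**
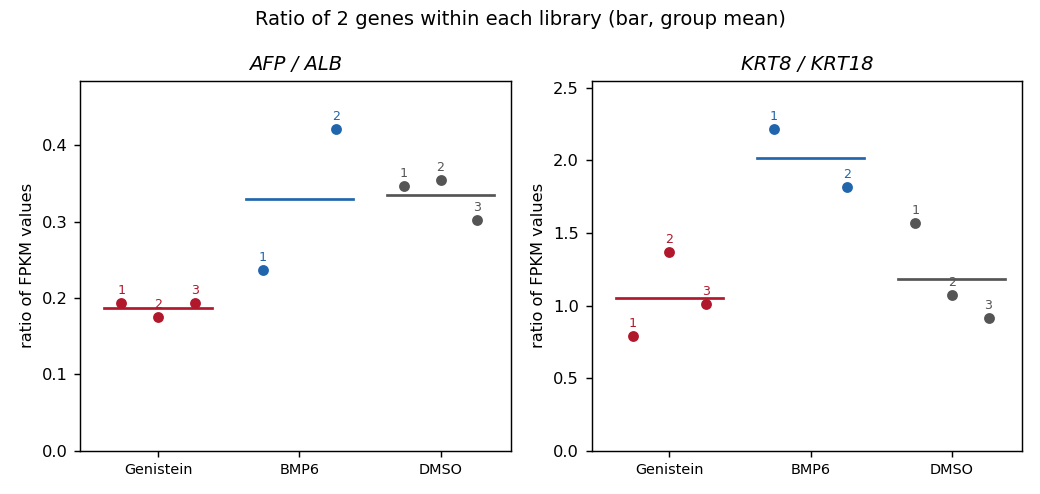
AFP to ALB and KRT8 to KRT18 ratios of FPKM values in each library, with groups in the order genistein, BMP6 and DMSO, linear axes from 0 and bars at group means. The AFP to ALB ratio is 0.175 to 0.193 in genistein libraries and 0.303 to 0.354 in DMSO libraries, and the KRT8 to KRT18 ratio is highest in the BMP6 libraries at 1.82 and 2.21.

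Of 16 keratins looked up, 7 were tested and 8 were listed at 0 in all libraries (KRT20, KRT81, KRT86, KRT5, KRT14, KRT17, KRT16 and KRT6A). KRT15, a type I keratin of basal epithelial cells, had 6.46, 5.25 and 3.78 FPKM after genistein and was listed at 0 in both BMP6 and all 3 DMSO libraries. It passed the filter on low values only through the genistein libraries, so its test is no independent support. It was the only keratin called in any comparison, higher after genistein than with DMSO (limma adjusted p = 0.0114) and than after BMP6 (limma adjusted p = 0.0474). The call against DMSO was lost without DMSO 2 or genistein 3 (limma adjusted p 0.0569 and 0.0534). The call against BMP6 was lost without DMSO 2, DMSO 3 or any genistein library (limma adjusted p 0.0826 to 0.182). Leaving out BMP6 1 or BMP6 2 leaves 1 BMP6 library, and gave a log2 difference of 2.60 either way. Among 7 tested filament partners, PPL, the cytolinker periplakin, was higher after genistein with 48.9, 34.9 and 46.7 FPKM, against 20.9, 11.7 and 15.3 FPKM with DMSO (limma adjusted p = 0.0435). LMNB1, a nuclear lamin, fell after genistein to 40.0, 33.1 and 31.7 FPKM, against 145, 123 and 122 FPKM with DMSO (limma adjusted p = 0.0259). The PPL call was lost without any of DMSO 2, DMSO 3 and the 3 genistein libraries (limma adjusted p 0.0759 to 0.154), and the LMNB1 call without any of the 6 libraries compared (0.0676 to 0.102). PPL was also higher after genistein than after BMP6, where it had 6.81 and 9.73 FPKM (limma adjusted p = 0.0422), a call lost without DMSO 2, DMSO 3, BMP6 1 or any genistein library (0.0724 to 0.174). After BMP6, limma called 0 keratins and 0 filament partners (0 and 1 at an unadjusted p under 0.05). Of all tested genes 12.1% were called after genistein, 0.837% after BMP6 and 1.39% between genistein and BMP6. VIM, the mesenchymal filament gene vimentin, was listed at 0 in every library.

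CDH1, SOX9 and TAT were the 3 of 10 genes called after genistein. CDH1 and SOX9 fell and TAT rose, 2 lower and 1 higher, while 12.1% of all tested genes were called, 5.96% lower and 6.11% higher. With a replicate block, and also without DMSO 2, limma called 0 of the 10. The groups did not overlap for 6 of 10 genes (CDH1, SOX9, TAT, EPCAM, GPC3 and ALB), which held for 43.9% of all tested genes. The median log2 difference of the 10 genes was 0.17 after genistein, against 0.05 over all genes.

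CDH1 (ENSG00000039068, chr16:67328696-67426943, hg18) had 6.74, 6.55 and 9.27 FPKM after genistein and 25.0 and 21.6 FPKM after BMP6, against 36.2, 30.8 and 29.8 FPKM with DMSO. Genistein libraries were the lowest and DMSO libraries the highest, and the 3 groups did not overlap. The log2 change after genistein was -1.97 ± 0.33, a level 3.93 times lower on the FPKM + 1 scale (SE, limma adjusted p = 0.0114). This call was lost without DMSO 2 (limma adjusted p = 0.0588). After BMP6 the log2 difference was -0.45 ± 0.37 (SE, limma adjusted p = 0.517), with a 95% interval of -1.30 to 0.39. Genistein against BMP6 gave -1.52 ± 0.37 (SE, limma adjusted p = 0.103), which did not pass the threshold, so the treatments were not shown to differ.

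SOX9 (ENSG00000125398, chr17:67628756-67634147, hg18), a transcription factor of bile duct and progenitor cells, had 212, 238 and 143 FPKM after genistein and 104 and 285 FPKM after BMP6, against 1303, 751 and 882 FPKM with DMSO. Every treated library was below every DMSO library by a wide margin. The log2 change after genistein was -2.30 ± 0.45, a level 4.91 times lower (SE, limma adjusted p = 0.0179). The call was lost on leaving out any of the 6 libraries compared, with limma adjusted p of 0.0520 to 0.0639 for the DMSO libraries and 0.0533 to 0.0827 for the genistein libraries. After BMP6 the log2 difference was of like size, -2.46 ± 0.50, and missed the threshold (SE, limma adjusted p = 0.0680). It passed without BMP6 2 (0.0188) and under 3 rescalings of the libraries (0.0174 to 0.0322). Genistein against BMP6 gave 0.17 ± 0.50 (SE, limma adjusted p = 0.928, 95% interval -0.98 to 1.31).

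EPCAM (ENSG00000119888, chr2:47425801-47467661, hg18), an epithelial adhesion protein of bile ducts, progenitors and many carcinomas, had 191, 151 and 118 FPKM after genistein and 67.7 and 185 FPKM after BMP6, against 743, 393 and 343 FPKM with DMSO. All treated libraries were below all DMSO libraries, and DMSO 1 was the highest, as it was for SOX9. The log2 difference was -1.62 ± 0.47 for genistein (SE, limma adjusted p = 0.0590) and -2.04 ± 0.52 for BMP6 (SE, limma adjusted p = 0.113), both short of the threshold. The genistein value passed it under 3 rescalings, without BMP6 1 and without BMP6 2, with only these groups in the fit and with library weights (limma adjusted p 0.00353 to 0.0284). The BMP6 value passed with equal FPKM totals (0.0363), quantile normalization (0.0423) and without BMP6 2 (0.0212). Without DMSO 1 the log2 difference of genistein from DMSO was -1.28.

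TAT (ENSG00000198650, chr16:70158255-70168496, hg18), the first enzyme of tyrosine breakdown and a glucocorticoid-induced marker of mature hepatocytes, had 17.3, 16.9 and 13.7 FPKM after genistein and 17.1 and 11.02 FPKM after BMP6, against 4.61, 3.73 and 5.31 FPKM with DMSO. All 5 treated libraries were above all DMSO libraries. The log2 change after genistein was 1.62 ± 0.37, a level 3.06 times higher (SE, limma adjusted p = 0.0296). The call was lost with equal FPKM totals (0.0550) and without DMSO 2 (0.110), DMSO 3 (0.0664), genistein 1 (0.0989), genistein 2 (0.0754) or genistein 3 (0.0950). After BMP6 the log2 difference was 1.42 ± 0.41 (SE, limma adjusted p = 0.146). Genistein against BMP6 gave 0.20 ± 0.41 (SE, limma adjusted p = 0.883).

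**Figure D3:**
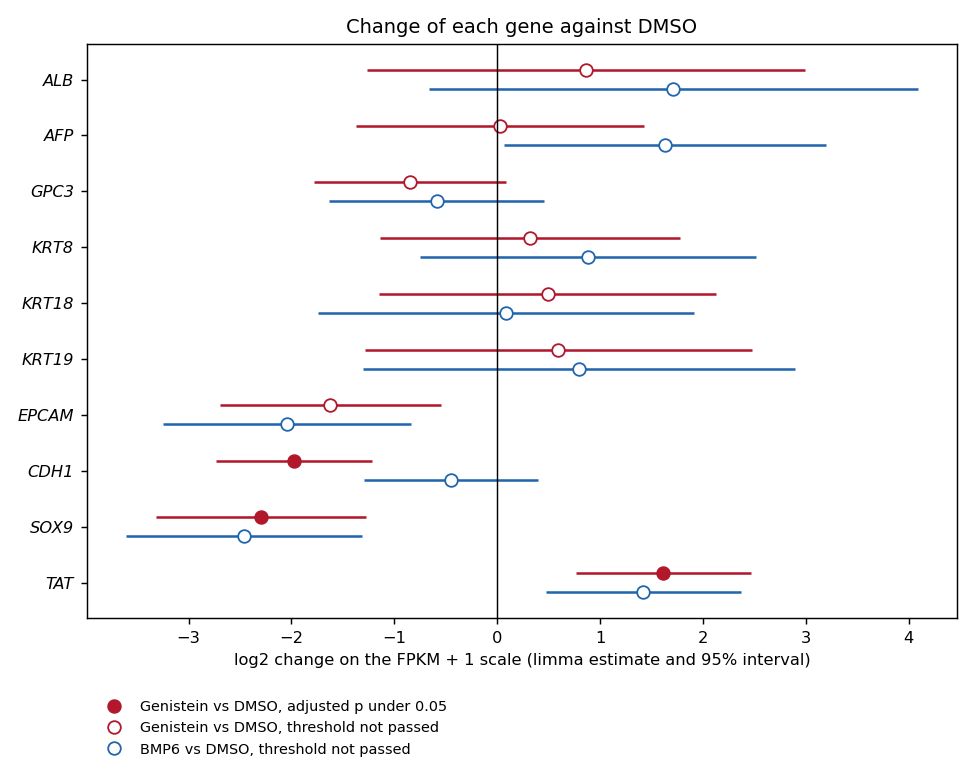
log2 difference from DMSO on the FPKM + 1 scale, with 95% intervals from limma, after genistein (red, upper) and BMP6 (blue, lower). Filled points have an adjusted p under 0.05: CDH1 and SOX9 lower and TAT higher after genistein, and none after BMP6.

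After BMP6, limma called 0 of the 10 genes at an adjusted p under 0.05, while 0.837% of all tested genes were called, 0.34% higher and 0.498% lower. An unadjusted p under 0.05 was reached by 4 of them (AFP, EPCAM, SOX9 and TAT). Their groups did not overlap for 7 of 10 genes, all but the 3 keratins, against 33.3% of all tested genes. The median log2 difference was 0.44, against -0.03 over all genes. The genistein and BMP6 comparisons share the 3 DMSO libraries, so likeness between them is not independent. Between genistein and BMP6, limma also called 0 of 10 (2 at an unadjusted p under 0.05, CDH1 and AFP), while 1.39% of tested genes were called, 0.64% higher and 0.75% lower after genistein. These groups did not overlap for AFP, GPC3 and CDH1, 3 of 10 genes, against 28.9% of tested genes.

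FPKM is scaled to transcript length, so the order of levels can be compared between genes. With DMSO the order of mean FPKM was ALB, AFP, GPC3, KRT8, KRT18, SOX9, EPCAM, KRT19, CDH1 and TAT, and only KRT8 with KRT18 and KRT18 with SOX9 overlapped as neighbours. After genistein it was ALB, AFP, GPC3, KRT8, KRT18, KRT19, SOX9, EPCAM, TAT and CDH1, where KRT8 with KRT18 and SOX9 with EPCAM overlapped. KRT19 was thus above SOX9 and EPCAM in all 3 genistein libraries and below both in all 3 DMSO libraries. TAT was above CDH1 in all 3 genistein libraries and below it in all BMP6 and DMSO libraries. Within libraries, SOX9 was above EPCAM in all 3 genistein libraries although their ranges overlapped. After BMP6, every neighbouring pair from GPC3 to EPCAM overlapped in range. The order KRT8, KRT18, KRT19, SOX9 and EPCAM nevertheless held within both BMP6 libraries, while GPC3 was above KRT8 in 1 of 2. SOX9 ranked 1544 to 2219 by FPKM within genistein libraries, 1735 to 2525 within BMP6 libraries and 196 to 428 within DMSO libraries.

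E-cadherin works with other junction proteins, which were looked up as lists. Of 10 tested adherens junction genes, CDH1 was the only call after genistein, and the median log2 difference was -0.47. Over all genes the share called was 12.1%, with 5.96% lower, and the median 0.05. CTNNA1, alpha-catenin, had 412, 310.5 and 426 FPKM after genistein and 384 and 397 after BMP6, against 169, 189 and 236 FPKM with DMSO, all treated libraries above DMSO but short of the threshold (limma adjusted p = 0.0671 and 0.171). CTNNB1, beta-catenin, had 216, 148 and 341 FPKM after genistein and 509 and 214 after BMP6, against 74.3, 184 and 257 with DMSO, with overlapping groups. Of 17 tested tight junction genes, CLDN14 and CGN fell after genistein and none rose (median -0.21). CLDN14, a claudin, was listed at 0 in all 3 genistein libraries and had 4.88 and 7.18 FPKM after BMP6, against 38.0, 28.7 and 23.4 FPKM with DMSO. It was lower after genistein than with DMSO (limma adjusted p = 0.00151), a call kept in all 19 alternatives, none of which changed the listed 0 values. It was also lower after genistein than after BMP6 (limma adjusted p = 0.0261), a call lost without DMSO 2, DMSO 3, BMP6 1 or any genistein library (0.0545 to 0.111). CGN, the junction plaque protein cingulin, fell after genistein to 1.29, 0 and 1.01 FPKM, against 7.29, 6.41 and 7.36 FPKM with DMSO (limma adjusted p = 0.0253), a call lost without DMSO 2, DMSO 3 or any genistein library (0.0555 to 0.0872). Limma called 0 of 7 desmosome genes after genistein, 5 of them with an unadjusted p under 0.05, and the median was -0.43. Of these 5, DSP and DSG2 were higher and PKP2, PKP3 and JUP lower. DSP, desmoplakin, which ties keratin filaments to desmosomes, had 599, 542 and 536 FPKM after genistein and 295 and 431 after BMP6, against 136, 304 and 348 with DMSO (limma adjusted p = 0.0922 and 0.521). After BMP6, limma called 0 of the adherens, tight junction and desmosome genes, with 2, 4 and 0 at an unadjusted p under 0.05.

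Epithelial regulators and mesenchymal genes were also looked up, because loss of E-cadherin is a textbook mark of epithelial to mesenchymal change. Of 9 tested epithelial regulators, KLF5, a Krüppel-like transcription factor, rose after genistein with 10.1, 14.0 and 9.41 FPKM, against 2.52, 3.63 and 2.17 FPKM with DMSO (limma adjusted p = 0.0325). This call was lost on leaving out any of the 6 libraries (0.0521 to 0.107). KLF5 was the only call of the 9 after genistein, while 12.1% of all tested genes were called. An unadjusted p under 0.05 in limma was reached by 6 of the 9, with EPCAM, ESRP2 and GRHL1 lower and ELF3, KLF5 and ADAM17 higher. ESRP2 had 76.3, 62.2 and 56.3 FPKM after genistein, against 156, 137 and 117 FPKM with DMSO. After BMP6, limma called 0 of the 9 (3 at an unadjusted p under 0.05). Limma called 0 of 7 tested mesenchymal genes after genistein (2 at an unadjusted p under 0.05) and 0 after BMP6 (1 at an unadjusted p under 0.05). SNAI1, the repressor of CDH1 known as Snail, had 24.2, 21.3 and 16.0 FPKM after genistein and 23.0 and 37.4 after BMP6, against 0, 4.54 and 6.38 FPKM with DMSO. Treated libraries were all above DMSO, with limma adjusted p of 0.0532 and 0.117. SNAI1 and ZEB1 were those with an unadjusted p under 0.05 in limma after genistein. ZEB1 had 34.3, 42.5 and 61.3 FPKM after genistein and 30.0 and 19.2 after BMP6, against 9.17, 23.2 and 23.1 with DMSO. It was not called after genistein (limma adjusted p = 0.0945), and 3 of the 7 mesenchymal genes were lower. CDH2, N-cadherin, had 13.2, 9.245 and 21.5 FPKM after genistein and 28.8 and 6.78 after BMP6, against 81.3, 23.4 and 22.7 with DMSO, and was not called.

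Of 8 tested SOX genes, 2 fell and 1 was called higher after genistein, against 5.96% and 6.11% of all tested genes. Their median log2 difference was -2.03, against 0.05 over all genes, and 0 were called after BMP6 by limma (4 at an unadjusted p under 0.05, median -1.19). SOX12, a SoxC factor, fell after genistein to 69.5, 59.8 and 36.5 FPKM, and had 42.8 and 200 after BMP6, against 307, 261 and 244 FPKM with DMSO (limma adjusted p = 0.0322). SOX8, the close relative of SOX9, had 8.34, 5.66 and 3.19 FPKM after genistein and was listed at 0 in every BMP6 and DMSO library (limma adjusted p = 0.0136 against DMSO). The SOX12 call was lost without any of the 6 libraries (0.0708 to 0.124) and the SOX8 call without DMSO 2 or genistein 1 (0.0637 and 0.0555). SOX8 passed the filter on low values only through the genistein libraries where it is highest, so its call is a description. SOX4, another SoxC factor, had 8.89, 10.7 and 2.603 FPKM after genistein and 1.11 and 10.9 after BMP6, against 22.3, 39.4 and 36.4 with DMSO, not called (limma adjusted p = 0.0938 and 0.150). Of 10 tested biliary and progenitor genes, SOX9 was the sole call after genistein and SPP1 after BMP6, against 12.1% and 0.837% of all tested genes. SPP1, osteopontin, a secreted protein of bile duct cells, had 378, 296 and 410 FPKM after genistein and 2553 and 1528 after BMP6, against 87.1, 200 and 202 FPKM with DMSO. Its log2 change after BMP6 was 3.69 ± 0.47 (SE, limma adjusted p = 0.0209), ended by leaving out DMSO 2, DMSO 3, genistein 3 or BMP6 1 (0.0554 to 0.124), with only these groups fitted (0.102) and with library weights (0.0779). SPP1 was also lower after genistein than after BMP6 (limma adjusted p = 0.0499), a call kept in 4 of 19 alternatives. KRT7, another bile duct keratin, was at most 0.816 FPKM, and CFTR was listed at 0 throughout.

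HPD and FAH, later enzymes of tyrosine breakdown, had ranges after genistein of 525 to 934 and 200 to 281 FPKM, which overlapped the DMSO ranges of 440 to 1208 and 87.2 to 256 FPKM. Of 13 tested enzymes and glucocorticoid targets of mature hepatocytes, TAT was the sole call after genistein and ARG1 after BMP6. The shares called over all tested genes were 12.1% after genistein and 0.837% after BMP6. ARG1, arginase of the urea cycle, had 38.1 and 8.78 FPKM after BMP6 and was listed at 0 in all genistein and DMSO libraries (limma adjusted p = 0.0315 against DMSO and 0.0212 for genistein against BMP6). The first of these calls was lost without any DMSO library, genistein 1 or genistein 3 (0.0524 to 0.159), and the second without DMSO 2, DMSO 3 or any genistein library (0.0523 to 0.105). ARG1 passed the filter on low values only through the BMP6 libraries, and leaving out either of them removed it from the test. An unadjusted p under 0.05 in limma was reached by 6 of the 13 after genistein and 5 after BMP6. After genistein PCK1 and ADH4 were lower, and TAT, AASS, FKBP5 and PER1 higher. PCK1, a gluconeogenic enzyme, had 62.1, 54.2 and 71.7 FPKM after genistein and 88.6 and 23.3 after BMP6, against 139, 157 and 159 with DMSO, not called. FKBP5 had 63.6, 50.6 and 72.0 FPKM after genistein, against 21.1, 36.5 and 36.6 with DMSO. PER1 had 43.9, 47.2 and 33.2 FPKM after genistein, against 20.1, 15.1 and 29.0 with DMSO, and neither was called. TTR, a plasma thyroxine carrier, was the only call after genistein among 9 hepatocyte markers, and limma called 0 of them after BMP6 (2 at an unadjusted p under 0.05). It fell to 1523, 1576 and 822 FPKM after genistein and had 1456 and 4173 after BMP6, against 8187, 8195 and 7162 FPKM with DMSO (limma adjusted p = 0.0193), a call lost without DMSO 2, DMSO 3 or any genistein library (0.0535 to 0.0887). With genistein 2 of the 9 markers, TTR and APOA1, had an unadjusted p under 0.05. APOA1 had 3983 to 12742 FPKM after genistein, 3963 and 36158 after BMP6 and 50517 to 58896 with DMSO. Its fall after genistein was not called (limma adjusted p = 0.0895).

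**Figure D4:**
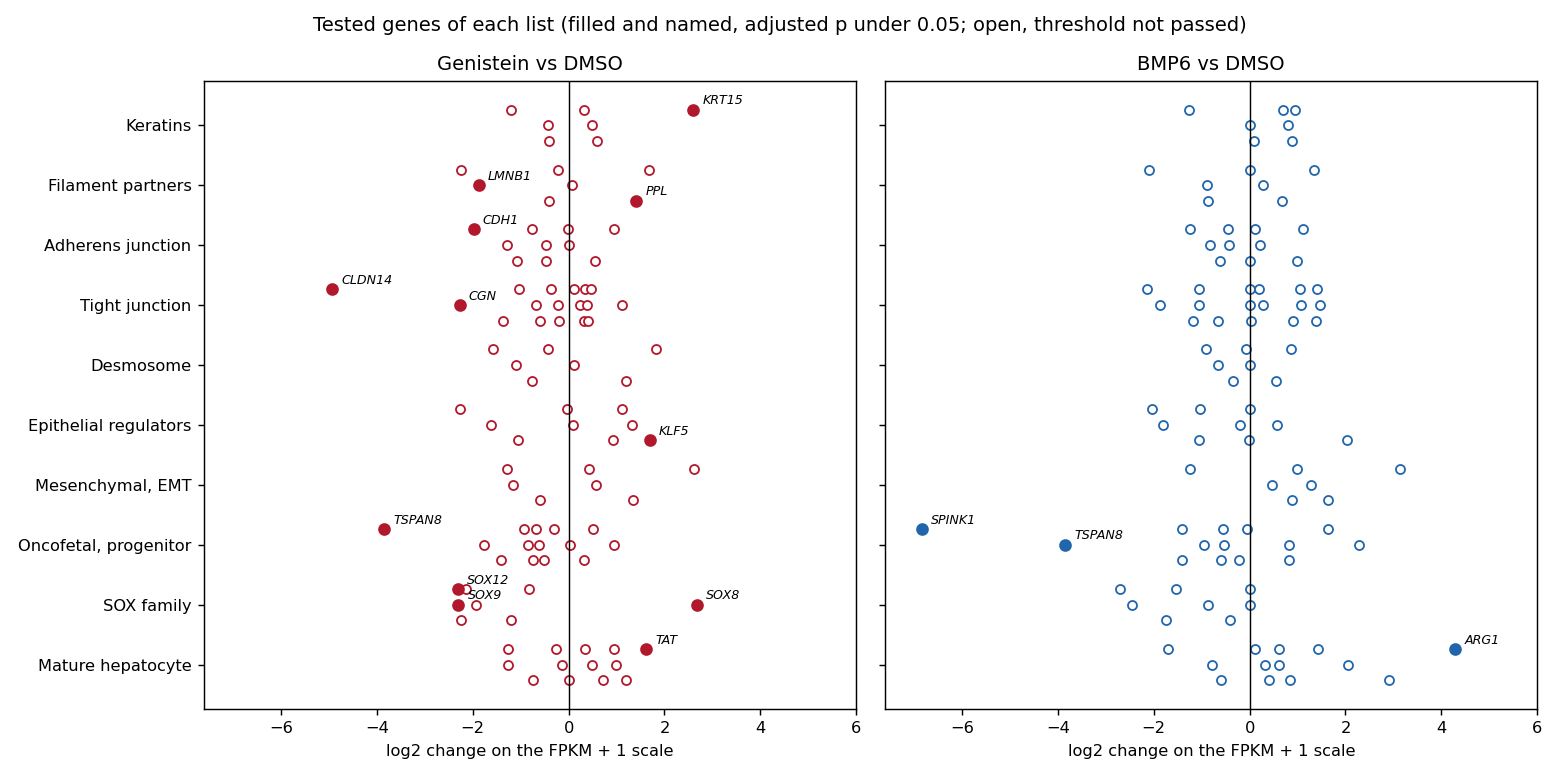
log2 difference from DMSO on the FPKM + 1 scale of each tested gene of 10 lists, after genistein (left) and BMP6 (right), with filled and named points for an adjusted p under 0.05. Junction, keratin and regulator lists scatter on both sides of 0, and the SOX family lies mostly below 0 after genistein, with a median of -2.03 against 0.05 over all genes.

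The genes whose log2 levels most resembled the genes described here over the 8 libraries were found among 11979 genes by Pearson's r, as a description of libraries that share their treatments. EPCAM was most like DMPK (r = 0.996) and SOX9 most like ASPDH (r = 0.990), which averaged 17.6 FPKM after genistein, 19.8 after BMP6 and 179 with DMSO. CDH1 was most like KBTBD6 (r = 0.986) and next like DIO1, a thyroid hormone deiodinase that averaged 1.65 FPKM after genistein, 41.5 after BMP6 and 112 with DMSO. AFP was most like LDHA (r = 0.974), a lactate dehydrogenase gene that averaged 1292, 4994 and 1200 FPKM after genistein, after BMP6 and with DMSO. KRT18 was most like RRP1 (r = 0.990) and next like the ribosomal protein gene RPL35. The first genes for ALB, KRT8, KRT19 and TAT were ERLIN1, ENTPD2, GMPPA and EPB41, with r from 0.977 to 0.986.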

How the data were processed

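Polyadenylated RNA from HepG2 cells was sequenced on an Illumina Genome Analyzer II, per the labels' protocols. Each deposited file lists an FPKM value, its interval and a status for each Ensembl gene, per the file headers. Per the submitters' processing notes, the build was hg18 and the tools were Cufflinks 1.0.3, Cuffdiff, Bowtie and TopHat 1.1.0, whose settings and the authors' scaling are not given in the sources used here. Depth is unknown, so no counting interval or floor was computed, and an exact 0 may be a failed estimate. Symbols matched 19069 of 20897 gene IDs. Coordinates are the files' hg18 spans with starts counted from 1.

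A gene was tested where 2 or more libraries had 1 FPKM or more (12661 genes), on log2(FPKM + 1) with limma 3.58.1 (R 4.3.3). All 8 libraries entered a single fit with an intensity trend, and p-values were adjusted by Benjamini-Hochberg over all tested genes, with a threshold of 0.05. The log2(FPKM + 1) scale understates changes of low genes. The fit was also run on simulated data with independent normal noise and no outlying libraries, so that run does not bear on the calls reported here. Ratios were compared by two-sided exact permutation tests (SciPy 1.17.1, Python 3.11.15). Groups and replicate numbers came from the sample titles. Same-numbered libraries of different groups had correlations of deviations from -0.247 to 0.286, and the other pairs from -0.59 to 0.59. Deviations of 2 BMP6 libraries from their mean mirror each other, so this check cannot exclude pairing. The main fit did not take the numbers to pair the samples, and a replicate block was run as an alternative. Promoters came from RefSeq (GRCh38.p14), whose table matched 3 of the 10 genes.

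The 10 genes and 21 gene lists were chosen with earlier results of these data known. Named genes are the 10, up to 6 other genes per list past the threshold by smallest p, listed-at-0 genes, and the 2 most similar genes for each, some of which are not reported here. The genes named without a call (such as CTNNA1, DSP, SNAI1, LIN28B, SOX4 and PCK1) were chosen after their values were seen. The 19 alternatives changed the pseudocount (0.1), the filter, the scaling, the libraries fitted, the weights, the variance trend or the replicate block, left out each library in turn, or left out 3 libraries chosen after the data were seen.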

Additional observations from a re-analysis of the deposited data

How the results depend on the processing

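Of 570 recomputed values of the 10 genes (19 alternatives in 3 comparisons), 514 kept their direction and call, 16 lost and 15 gained a call, and 25 changed sign, all of the last in uncalled differences. Genistein against DMSO called 3 of the 10 genes, but 5 with library weights and 0 with a replicate block, and 0 to 4 on leaving out single libraries. With the replicate block, limma adjusted p was 0.0591 for CDH1, 0.0570 for SOX9 and 0.107 for TAT. BMP6 against DMSO called 0 of 10, but 1 with median-of-ratios scaling, 2 with equal FPKM totals, 2 with quantile normalization, and 0 to 2 without single libraries.

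Over all genes, genistein against DMSO called 1527, but 2395 with quantile normalization, 2690 with only these groups fitted, 5383 with library weights, 414 with the replicate block, 2780 leaving out 3 libraries (DMSO 1, genistein 2, BMP6 1), and 229 to 2671 without single libraries. BMP6 against DMSO called 106, but 38 with a mean of at least 5 FPKM, 382 with median-of-ratios scaling, 566 with equal totals, 338 with quantile normalization, 17 with only these groups, 8 with weights, 173 with no trend, 4 with the replicate block, 503 with the 3 libraries left out, and 5 to 1999 without single libraries. Genistein against BMP6 called 176, but 417, 365 and 424 under these scalings in the same order, 37 with only these groups, 38 with weights, 7 with the replicate block, 883 with the 3 libraries left out, and 42 to 629 without single libraries. The all-gene median log2 difference shifted under median-of-ratios scaling by -0.12 in genistein against DMSO (927 higher and 1312 lower, against 773 and 754) and by -0.19 for genistein against BMP6. Equal totals moved it by -0.13 (791 and 1334) and, for BMP6 against DMSO, by -0.11 (118 and 448, against 43 and 63).

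The cause of the following changes of sign was not tested. Where leaving out a BMP6 library leaves 1, that library is assumed to vary like those of the other groups. AFP after genistein (0.03) was -0.094 with median-of-ratios scaling, -0.10 with equal totals, -0.26 with quantile normalization, -0.14 with weights, -0.14 with the 3 libraries left out, and -0.27 to 0.22 without single libraries. KRT18 after BMP6 (0.09) was -0.028 with equal totals, -0.044 with quantile normalization, -0.095 with weights and -1.29 to 1.47 without single libraries. KRT8 and KRT19 after BMP6 ran from -0.36 to 2.12 and from -0.97 to 2.55 without single libraries. For genistein against BMP6, leaving out single libraries gave -1.80 to 0.68 for KRT8, -0.98 to 1.78 for KRT18, -1.95 to 1.56 for KRT19, -0.29 to 1.14 for EPCAM, -0.56 to 0.89 for SOX9 and -0.10 to 0.49 for TAT. With the 3 libraries left out, KRT18, EPCAM and SOX9 were -0.99, -0.30 and -0.71, and SOX9 was -0.031 with median-of-ratios scaling. The log2 AFP to ALB ratio after BMP6 against DMSO was 0.36 with the 3 libraries left out and -0.49 to 0.33 without single libraries. The KRT8 to KRT18 ratio after genistein against DMSO ran from -0.37 to 0.053 without single libraries. Of 24 other named calls, 4 held in all alternatives: CLDN14 and TSPAN8 after genistein against DMSO, and SPINK1 in both comparisons with BMP6. Each of the 4 rests on a gene listed at 0 in every library of a group. Such a 0 may be a failed estimate, and no alternative changed it. The other 20 were lost with the replicate block (limma adjusted p 0.0545 to 0.219). Other settings ended calls of CGN, KLF5, LYZ, PPL and SPP1 (pseudocount 0.1, 0.0533 to 0.0771), KLF5, TSPAN8, ARG1, CLDN14 and SPP1 (mean of at least 5 FPKM, 0.0571 to 0.157, the last 4 in comparisons with BMP6), and KRT15, PPL, CLDN14, SPP1, ARG1 and TSPAN8 in comparisons with BMP6 (only these groups fitted, 0.0765 to 0.199, and library weights, 0.0779 to 0.293).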
